A study of Drosophila melanogaster with 17 samples.

Results

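The comparison set 3 brain libraries of flies with wild-type human TyrRS in their neurons (TyrRS-WT, nSyb>WT in the labels) against 3 libraries of flies with the same enzyme and a disrupted nuclear localization signal (TyrRS-WT∆NLS, which the labels write nSyb>WT-NLS). These were 6 of the 17 libraries of the series, picked from the 17 by the genotype in the labels alone. The other libraries were 3 of the driver control (nSyb>+), 4 of TyrRS-E196K, which carries a mutation that causes Charcot-Marie-Tooth neuropathy, and 4 of TyrRS-E196K∆NLS. The authors had already removed 3 libraries as outliers, judged by their measured expression. Per the methods, both genotypes compared here lost a library in this way. The effect of that removal on the spread within genotypes was not tested. RNA came from dissected whole brains at an age of 10 days. All genotypes, the control included, carried the nSyb-Gal4 driver, which acts in neurons, so glia were sampled without being a target of the driver. Any retina left on the brain was sampled as well. TyrRS-WT and TyrRS-WT∆NLS flies carried the same number of transgene copies, whereas TyrRS-E196K flies carried fewer copies than TyrRS-E196K∆NLS flies. The TyrRS-WT line came from an earlier study, whereas the ∆NLS lines were made for the present one. The study describes TyrRS-WT∆NLS protein as somewhat less abundant than the other transgenic proteins. The state of the signal, the transgene level, the fly line and the place of its insertion therefore cannot be told apart in this comparison.

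Tyrosyl-tRNA synthetase loads tyrosine onto its tRNA for translation in the cytoplasm. A stretch of positively charged residues lets part of the enzyme enter the nucleus, where in human cells it binds the scaffold protein TRIM28 and the deacetylase HDAC1 and acts on the transcription factor E2F1. In the ∆NLS protein this stretch was replaced by a less charged one, which lowers the nuclear share of the enzyme and is not described as abolishing it. The comparison asks which brain transcripts differ between flies with the intact and with the disrupted signal. The reads were counted on fly genes only, so the level of the human transcript in the brains is not known here.

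Counts on genes ran from 44673144 to 46789431 per library in TyrRS-WT and from 48288399 to 56030758 in TyrRS-WT∆NLS. Levels are given in CPM, which are counts scaled to a common total after adjusting each library's size by TMM. The neuronal markers elav, nSyb, Syt1, brp and 6 others summed to between 8173 and 9826 CPM in TyrRS-WT and between 7674 and 9594 in TyrRS-WT∆NLS, and none of the 10 differed. Summed marker levels of glia, fat body, muscle, hemocytes and male dosage compensation also overlapped between the genotypes. The photoreceptor markers did not overlap, at 8922 to 11090 CPM in TyrRS-WT, 13050 to 17720 in TyrRS-WT∆NLS and 16060 to 20880 in control, and none of the 13 was at 0. In whole brains, fewer cells of a type and less RNA per cell cannot be told apart.

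Of 16163 genes with a count, 175 (1.08%) differed between TyrRS-WT and TyrRS-WT∆NLS at an adjusted p under 0.05 in edgeR, 99 of them higher (0.613% of genes tested) and 76 lower (0.47%) in TyrRS-WT. A further measure of scale is that 1541 genes had an unadjusted p under 0.05. The change was at least 2-fold for 100 of the 175, 57 higher and 43 lower. Protein-coding genes made up 153 of the calls, and 125 averaged 1 CPM or more over the 6 libraries. The libraries of the genotypes did not overlap for any of the 175, which was also true of 13.5% of all genes tested. Against the control libraries, of the 99 genes higher in TyrRS-WT 56 had all TyrRS-WT libraries above every control library (7.59% of all genes tested) and 50 had all TyrRS-WT∆NLS libraries below (8.45%). Of the 76 lower genes, 54 had all TyrRS-WT∆NLS libraries above every control library (10.0% of all genes tested) and 32 had all TyrRS-WT libraries below (8.14%). These counts share libraries with the calls, whose direction favours them, so nothing is read from the excess over all genes. Calls lay on every large chromosome arm and on chromosome 4, with 1.55% of tested genes called on 2L, 1.12% on 2R, 1.26% on 3L, 0.968% on 3R, 2.75% on 4 and 0.448% on X. None was called among 27 mitochondrial or 43 Y-linked genes.

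**Figure D1:**
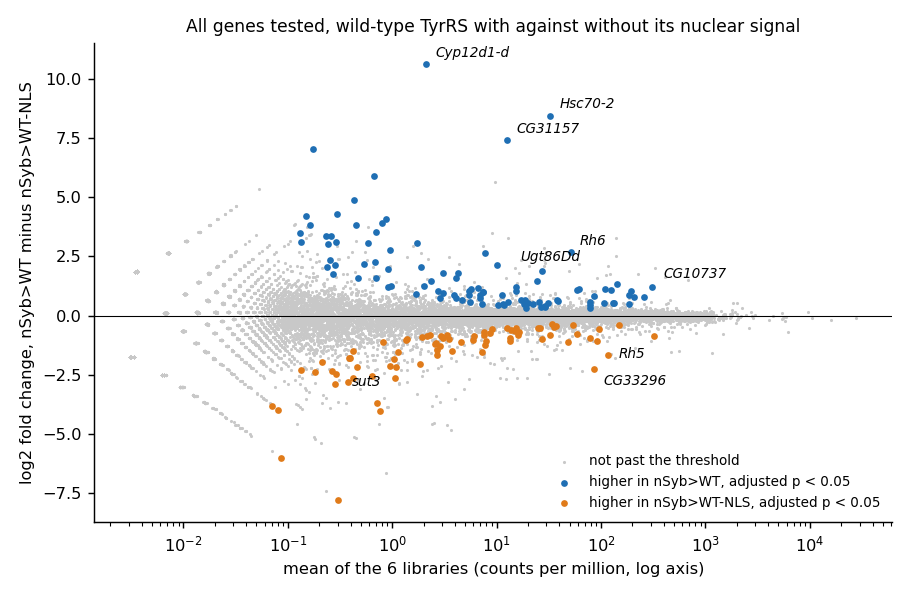
Log2 fold change of TyrRS-WT (nSyb>WT) minus TyrRS-WT∆NLS (nSyb>WT-NLS) for each gene with a count in the 6 libraries, against its mean level in CPM on a log axis. The 99 genes higher in TyrRS-WT are blue and the 76 lower are orange. Most genes lie at 0, and Cyp12d1-d (fitted value 10.60, with 0 counts in nSyb>WT-NLS), Hsc70-2 (8.44) and CG31157 (7.40) stand above all other called genes.

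The largest differences at a readable level came from adjacent genes on chromosome 3R. Hsc70-2, a cognate member of the Hsp70 chaperone family, was at 69.1, 58.6 and 67.6 CPM in the TyrRS-WT libraries and at 0.242, 0.0611 and 0.244 CPM in the TyrRS-WT∆NLS libraries. Control libraries held 0, 0.212 and 0.159 CPM, so the gene was near 0 outside TyrRS-WT. Its log2 fold change was 8.44 (SE 0.49, adjusted p = 2.58e-07 from edgeR). CG31157, whose start lies 0.343 kb from the end of Hsc70-2, was at 25.5, 24.9 and 25.4 CPM in TyrRS-WT and at 0.186, 0.163 and 0.0936 CPM in TyrRS-WT∆NLS. That is a log2 fold change of 7.40 (SE 0.67, adjusted p = 1.35e-05 from edgeR), and control libraries were between 0.182 and 0.495 CPM. Next on the chromosome, CG7966, which encodes a selenium-binding protein, was at 100.5, 79.0 and 71.7 CPM against 44.2, 36.6 and 33.4 CPM (log2 fold change 1.14, SE 0.17). The last gene of the run, pic, which encodes the fly DDB1 adaptor of cullin ubiquitin ligases, was at 88.4, 83.1 and 88.0 CPM against 70.3, 71.3 and 68.0 CPM. Its difference was small, 0.31 on the log2 scale (SE 0.07, adjusted p = 0.0313 from edgeR), and the call was lost in 8 of 13 alternatives. The 4 genes span 11.97 kb (BDGP6, 3R from 13044759 to 13056725), and all were higher in TyrRS-WT. Size fell with distance from Hsc70-2 along the run. Of the other 29 members tested of the heat shock and chaperone list none was called. The inducible Hsp70Bb, for example, was at a mean of 75.4 CPM in TyrRS-WT and 52.2 in TyrRS-WT∆NLS (log2 fold change 0.53, adjusted p = 0.462 from edgeR), with no more than 2.96 CPM in control, and its reads may be shared with near-identical Hsp70 copies.

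**Figure D2:**
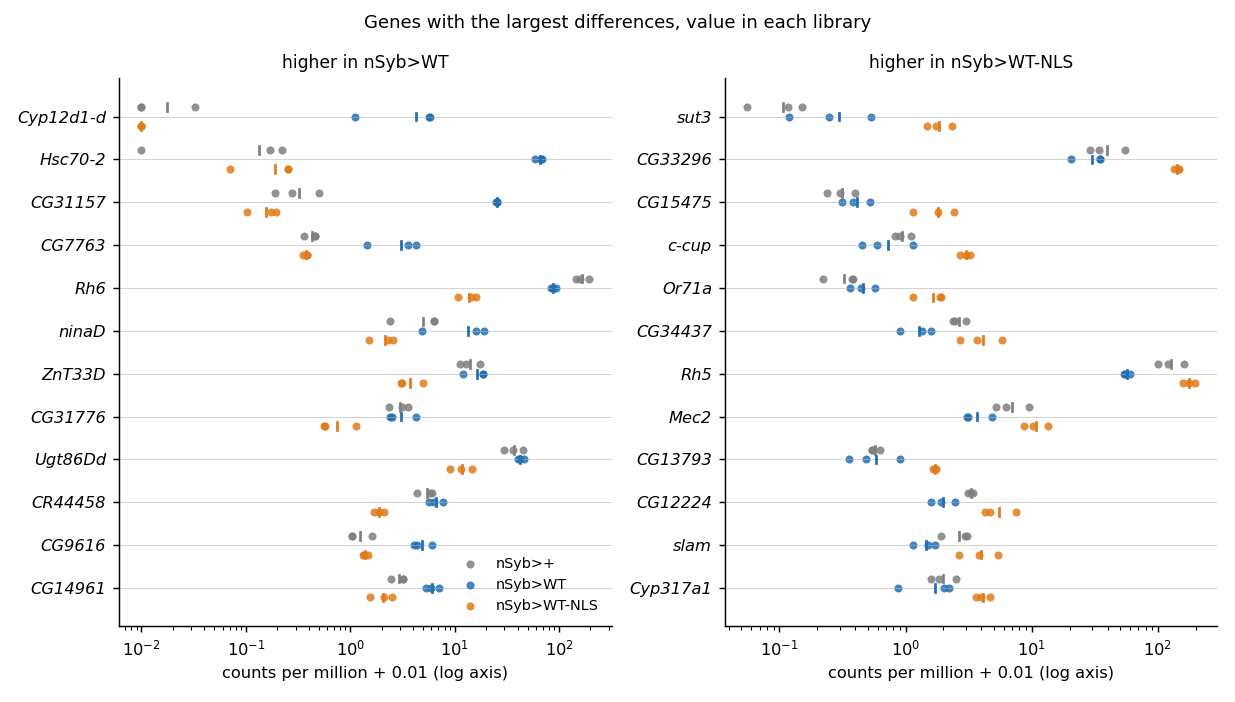
Level of the 12 genes with the largest positive and the 12 with the largest negative log2 fold change among called genes that averaged 1 CPM or more. Each point is a library, short bars are group means, and the axis is CPM plus 0.01 on a log scale. Hsc70-2 is at 58.6 to 69.1 CPM in nSyb>WT and at 0.0611 to 0.244 in nSyb>WT-NLS, whereas Rh6, ZnT33D and Ugt86Dd are lower in nSyb>WT-NLS than in every nSyb>WT and nSyb>+ library.

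The opsins of the R8 photoreceptor differed between the genotypes in opposite directions. In the fly eye the inner photoreceptor R8 expresses either the blue-sensitive opsin Rh5 or the green-sensitive opsin Rh6. Rh6 was at 87.8, 93.6 and 83.6 CPM in TyrRS-WT and at 10.8, 14.5 and 16.1 CPM in TyrRS-WT∆NLS. Control libraries held 143.9, 160.3 and 194.9 CPM, so TyrRS-WT∆NLS was the low genotype. The log2 fold change was 2.68 (SE 0.29, adjusted p = 8.56e-05 from edgeR) and was called in all 13 alternatives. Rh5 was at 60.3, 55.4 and 53.6 CPM in TyrRS-WT and at 197.1, 177.5 and 157.2 CPM in TyrRS-WT∆NLS, against 99.5, 121.0 and 160.3 CPM in control. For both opsins TyrRS-WT was below every control library, and for Rh5 the TyrRS-WT∆NLS range overlapped control. The log2 fold change of Rh5 was -1.65 (SE 0.33, adjusted p = 0.0211 from edgeR). That call was lost in 6 of 13 alternatives, 5 of them fits without 1 library, with adjusted p up to 0.108. As a share of the counts of both genes, Rh5 took 40.7, 37.2 and 39.1% in TyrRS-WT and 94.8, 92.5 and 90.7% in TyrRS-WT∆NLS. The means, 39.0% ± 1.75 and 92.7% ± 2.06 (SD, n = 3 each), differed by -53.7 percentage points. A two-sided exact permutation p was 0.1, the smallest that 3 against 3 libraries allow. Both genes were already apart without overlap and in opposite directions, which fixed this outcome, so nothing is read from it. Scaled by exon length, 1572 bases for Rh5 and 1407 for Rh6, the shares were 34.6 to 38.1% and 89.7 to 94.2%. The share was 40.9 to 45.1% in control, 34.0 to 39.9% in TyrRS-E196K and 47.3 to 50.6% in TyrRS-E196K∆NLS, so the TyrRS-WT∆NLS libraries stood apart from the other 14.

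**Figure D3:**
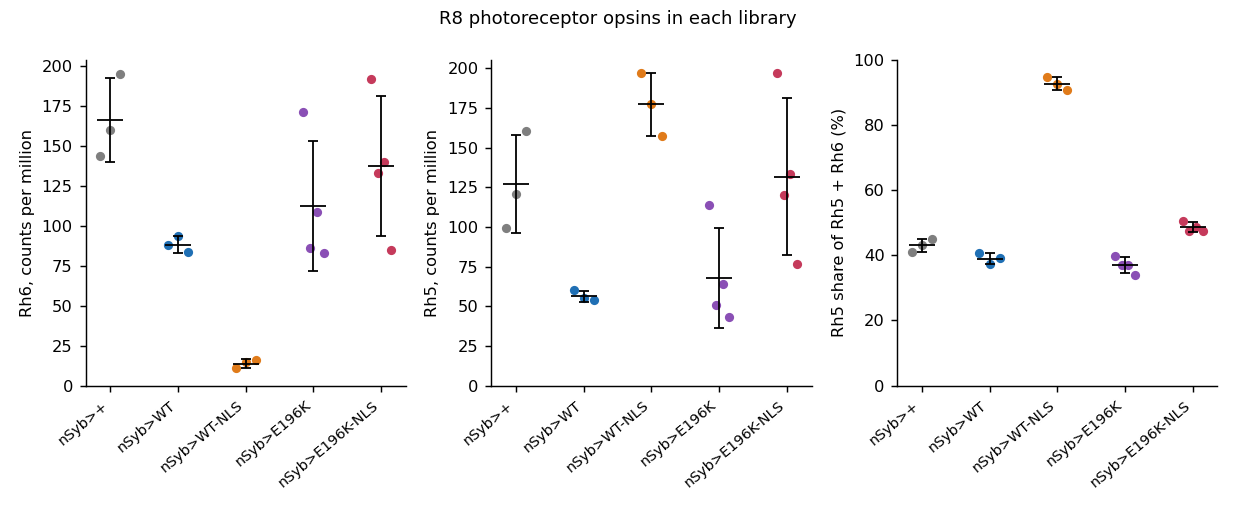
Rh6 and Rh5 in CPM and the share of Rh5 in the counts of both genes, for each of the 17 libraries by genotype. Horizontal bars are means and error bars the SD between libraries. Rh6 is at 10.8 to 16.1 CPM in nSyb>WT-NLS and above 80 CPM in all other libraries, and the Rh5 share there is 90.7 to 94.8%.

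Of the remaining phototransduction genes only ninaD was called in edgeR, and DESeq2 called santa-maria as well. ninaD encodes a scavenger receptor that takes up carotenoids for the visual pigment. It was at 19.0, 4.90 and 16.0 CPM in TyrRS-WT and at 2.59, 2.28 and 1.498 CPM in TyrRS-WT∆NLS, a log2 fold change of 2.65 (SE 0.44, adjusted p = 0.00505 from edgeR). The call was lost in the fit of the 6 libraries alone and in that with a replicate block, with adjusted p up to 0.0842 in edgeR. The second TyrRS-WT library was within the control range of 2.39 to 6.33 CPM. The outer photoreceptor opsin ninaE had a mean of 4664 CPM in TyrRS-WT and 7620 in TyrRS-WT∆NLS (log2 fold change -0.71, adjusted p = 0.389 from edgeR). Rh3 and Rh4, the opsins of R7, were at -0.79 and -0.63 on the log2 scale, the arrestin Arr1 at -0.76 and the channel trpl at -0.96, all with adjusted p above 0.2 in edgeR. Over the 30 members tested, 2 were called higher and 1 lower, beside 0.613% and 0.47% of all genes. The median log2 fold change was -0.27, against 0.0 for all genes. The photoreceptor marker sum given above includes ninaE, trpl, Arr1, Rh3, Rh4, Rh5 and Rh6, so it is not a measure separate from these genes. Its part in the result was not tested. Rh5, lower in TyrRS-WT, went with that sum and Rh6 went against it. Rh2, the opsin of the ocelli, was at a mean of 876 CPM against 871.

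Some cytochrome P450 and transferase genes, which act in detoxification, were among the larger differences. Cyp12d1-d, a mitochondrial cytochrome P450, was at 5.82, 5.73 and 1.10 CPM in TyrRS-WT and had no read in any TyrRS-WT∆NLS library. Against a floor of 3 counts per library, TyrRS-WT was at least 73.1-fold higher (adjusted p = 4.07e-04 from edgeR). Its near-identical neighbour Cyp12d1-p had a mean of 4.96 CPM in TyrRS-WT and 2.78 in TyrRS-WT∆NLS (log2 fold change 0.83, adjusted p = 0.76 from edgeR), and counting may have split reads between the copies. Cyp313a2 and Cyp313a5, which lie next to each other on 3R, were also higher in TyrRS-WT, by 3.02 (SE 0.36) and 3.34 (SE 0.73) on the log2 scale. Both were scarce, at 0.348 to 0.542 CPM against 0.0375 to 0.0744 CPM for Cyp313a2 and 0.414 to 0.521 against 0.0204 to 0.0562 for Cyp313a5. Cyp6t3 was at 7.30, 6.99 and 7.65 CPM in TyrRS-WT and 2.34, 3.75 and 4.50 CPM in TyrRS-WT∆NLS (log2 fold change 1.05, SE 0.21). In the other direction, Cyp301a1 was at -0.81 (SE 0.18) and Cyp317a1 at -1.28 (SE 0.28), and these calls were lost in 9 and 8 of 13 alternatives. The call was lost in 8 for Cyp313a5 and in 5 for Cyp6t3, and in none for Cyp313a2 and Cyp12d1-d. In edgeR 4 of 85 P450 genes were called higher and 2 lower, beside 0.613% and 0.47% of all genes, and the median log2 fold change was 0.0, that of all genes. DESeq2 called 8 of the 85. Among 52 glutathione and glucuronosyl transferases, edgeR called Ugt86Dd higher and Ugt36Bc lower (1.08% of all genes were called), whereas DESeq2 called 6, adding GstE1, GstD9, GstE7 and GstE4. Ugt86Dd was at 45.95, 42.1 and 39.99 CPM in TyrRS-WT and at 9.04, 11.6 and 14.7 CPM in TyrRS-WT∆NLS, with control libraries from 29.5 to 45.0 CPM. Its log2 fold change of 1.86 (SE 0.18, adjusted p = 2.58e-05 from edgeR) held in all 13 alternatives. Ugt36Bc was at 20.5 to 27.3 CPM in TyrRS-WT and 36.8 to 47.8 CPM in TyrRS-WT∆NLS (log2 fold change -0.84, SE 0.15).

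Other large differences fell on either side of the control level. ZnT33D, a zinc transporter, was at 18.7, 12.1 and 18.6 CPM in TyrRS-WT, 4.98, 3.14 and 3.07 CPM in TyrRS-WT∆NLS and 11.2 to 17.6 CPM in control (log2 fold change 2.14, SE 0.26, adjusted p = 2.61e-04 from edgeR). TyrRS-WT∆NLS was the low one of these 3 genotypes. CG31776 showed the same order, at 4.21, 2.53 and 2.39 CPM, 0.558, 0.550 and 1.12 CPM and 2.32 to 3.58 CPM. CR44458, a non-coding RNA, was at 5.67 to 7.73 CPM in TyrRS-WT and 1.69 to 2.08 CPM in TyrRS-WT∆NLS, with 4.38 to 6.07 CPM in control. CG9616 was the opposite case, with 4.32, 6.03 and 4.09 CPM in TyrRS-WT, 1.32, 1.34 and 1.48 CPM in TyrRS-WT∆NLS and 1.02 to 1.62 CPM in control (log2 fold change 1.80, SE 0.30). CG14961 was likewise above control in TyrRS-WT, at 5.31 to 7.15 CPM against 1.55 to 2.49 CPM, and control lay at 2.47 to 3.21 CPM. CG7763 was at 3.59, 4.22 and 1.44 CPM in TyrRS-WT and at 0.346 to 0.375 CPM in TyrRS-WT∆NLS, so the third TyrRS-WT library carried less of it, as it did of Cyp12d1-d. The calls of CR44458 and CG7763 were lost in 7 and 4 of 13 alternatives, in most cases without 1 library. Tep4, a thioester-containing protein of the immune system, was above control in both genotypes, at 209.0, 162.9 and 137.3 CPM in TyrRS-WT, 76.9, 76.7 and 86.2 CPM in TyrRS-WT∆NLS and 23.4 to 33.9 CPM in control. Its log2 fold change between the genotypes was 1.09 (SE 0.19, adjusted p = 0.00825 from edgeR), and edgeR called no other of 50 immunity genes, whose median was 0.41, whereas DESeq2 also called Def and Tep1. Its call was lost without TyrRS-WT replicate 1 and without TyrRS-WT∆NLS replicate 1 or 2, with adjusted p up to 0.053 in edgeR.

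The genes lower in TyrRS-WT are set beside control, by level or by position. CG33296 was at 20.4, 34.6 and 34.6 CPM in TyrRS-WT and at 146.7, 144.8 and 134.1 CPM in TyrRS-WT∆NLS, with 29.0, 55.1 and 34.4 CPM in control. Its log2 fold change of -2.25 (SE 0.22, adjusted p = 2.94e-05 from edgeR) was called in all 13 alternatives. Its neighbour CG13793 was at 0.348 to 0.897 CPM and 1.64 to 1.74 CPM, with 0.53 to 0.614 CPM in control (log2 fold change -1.55, SE 0.33). The sugar transporter gene sut3 was at 0.521, 0.109 and 0.237 CPM in TyrRS-WT and 2.32, 1.73 and 1.48 CPM in TyrRS-WT∆NLS, with no more than 0.141 CPM in control (log2 fold change -2.66, SE 0.45). Beside it, CG8713, which encodes the potassium channel sandman, was at 0.718 to 0.991 CPM against 1.57 to 2.36 CPM, with 0.546 to 0.637 CPM in control (log2 fold change -1.05, SE 0.22). CG15475, Or71a, an odorant receptor gene, and c-cup were at 0.305 to 1.142 CPM in TyrRS-WT and 1.142 to 3.24 CPM in TyrRS-WT∆NLS. Their control libraries held 0.212 to 1.095 CPM, and their log2 fold changes were -2.16, -1.85 and -2.04. For slam, Mec2, CG12224 and CG34437 the control libraries lay between the genotypes or overlapped 1 of them. Mec2, a stomatin family gene, was at 3.11, 3.05 and 4.87 CPM in TyrRS-WT, 8.74, 13.4 and 10.2 CPM in TyrRS-WT∆NLS and 5.23 to 9.58 CPM in control. Calls were lost in 5 to 8 of 13 alternatives for CG13793, CG8713, Or71a, slam, Mec2 and CG34437, and in 1 for sut3, CG15475, c-cup and CG12224.

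Among called genes averaging 1 CPM or more that were not among the largest changes, list members or neighbours, the 10 with the smallest adjusted p were chosen after their values were seen. All 10 passed the threshold in all 13 alternatives. GEFmeso, a guanine nucleotide exchange factor, had the smallest of these, with 59.8, 61.0 and 57.5 CPM in TyrRS-WT and 122.3, 127.0 and 124.7 CPM in TyrRS-WT∆NLS (log2 fold change -1.07, SE 0.07, adjusted p = 3.25e-07 from edgeR). Control held 50.7 to 56.1 CPM, and TyrRS-WT∆NLS was the genotype that stood apart. The kinetochore gene Mis12 was similar, at 4.30 to 4.83 CPM in TyrRS-WT, between 10.2 and 11.3 CPM in TyrRS-WT∆NLS and between 4.70 and 6.66 CPM in control, as was the non-coding RNA CR43242 at 7.65 to 9.22, 16.5 to 19.4 and 6.68 to 7.70 CPM. By contrast, 6 genes were near the control level in TyrRS-WT∆NLS and higher in TyrRS-WT, by 1.04 to 1.32 on the log2 scale. kek2, a leucine-rich repeat membrane protein of neurons and other cells, was at 266.7, 247.3 and 276.2 CPM against 135.5, 124.1 and 125.0 CPM, with 132.3 to 156.6 CPM in control (log2 fold change 1.04, SE 0.08). Topors, a ubiquitin and SUMO ligase of the nucleus, was at 81.0, 68.0 and 90.1 CPM against 36.4, 39.4 and 38.2 CPM, with 38.1 to 39.8 CPM in control (log2 fold change 1.07, SE 0.09). CG10737 was at 396.5 to 474.8 CPM against 181.2 to 201.4 CPM, CG34376 at 136.0 to 161.3 against 64.2 to 73.3 CPM and CG14024 at 192.8 to 209.2 against 72.0 to 97.8 CPM. The last of the 6, mus308, is described with the DNA repair genes. spartin, whose human counterpart is mutated in a hereditary spastic paraplegia, was at 37.7, 34.9 and 34.9 CPM against 12.8, 11.6 and 15.1 CPM (log2 fold change 1.44, SE 0.11), and here TyrRS-WT∆NLS lay below the 27.9 to 32.1 CPM of control.

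DNA repair genes and the partners of nuclear TyrRS bear on the question the study asked. Of 44 DNA replication and repair genes tested, edgeR called 1 higher and 1 lower, beside 0.613% and 0.47% of all genes. mre11, a nuclease of double-strand break repair, was at 30.9, 31.5 and 28.3 CPM in TyrRS-WT and 17.5, 22.01 and 21.6 CPM in TyrRS-WT∆NLS (log2 fold change 0.57, SE 0.12, adjusted p = 0.0259 from edgeR), and its call was lost in 8 of 13 alternatives. phr6-4, a photolyase for ultraviolet damage, was at 1.19, 1.89 and 1.81 CPM against 3.18, 4.01 and 3.84 CPM (log2 fold change -1.17, SE 0.22, adjusted p = 0.0125 from edgeR), and its call was lost in 3 of 13 alternatives, with adjusted p up to 0.104. DESeq2 called CycB as well, and the list's median was -0.12. Outside the list, mus308, the fly DNA polymerase theta of end joining, was at 20.4, 18.4 and 24.9 CPM in TyrRS-WT, 8.93, 8.29 and 10.4 CPM in TyrRS-WT∆NLS and 9.14 to 9.61 CPM in control (log2 fold change 1.21, SE 0.11). FANCI, a component of the Fanconi anemia pathway that was also picked after its values were seen, was at a mean of 3.85 CPM in TyrRS-WT and 7.98 CPM in TyrRS-WT∆NLS (log2 fold change -1.05). mus308 and FANCI were not in the list and do not count toward it. No nuclear partner factor passed the test. E2f1 was at 101.2, 104.8 and 88.0 CPM in TyrRS-WT and 98.9, 83.6 and 105.9 CPM in TyrRS-WT∆NLS (log2 fold change 0.03, SE 0.11), Dp, its dimer partner, at 0.01 (SE 0.05), and bon, the fly TRIM28 counterpart, at 0.06 (SE 0.08). HDAC1, named Rpd3 in the table, was at 0.06 (SE 0.06) and the CP2 family factor gem at -0.20 (SE 0.10). The signs of E2f1, Dp and HDAC1 turned in some alternatives, and their libraries overlapped. Over all 15 partner factors tested the log2 fold change ran from -0.20 to 0.13, with 0 at an unadjusted p under 0.05 in edgeR and 0 called by DESeq2.

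The tRNA synthetases gave no call. List counts at an unadjusted p under 0.05 are to be set beside 1541 of all 16163 genes in edgeR. Endogenous TyrRS, encoded by Aats-tyr in the table, was at 50.1, 63.0 and 46.5 CPM in TyrRS-WT and at 47.2, 58.2 and 63.5 CPM in TyrRS-WT∆NLS, with overlapping groups (log2 fold change -0.08, SE 0.13, adjusted p = 0.891 from edgeR). The 24 synthetase genes ran from -0.25 to 0.09 on the log2 scale with a median of -0.06, 1 of them at an unadjusted p under 0.05 and none called by DESeq2. The unfolded protein and integrated stress response list was similar, with 26 genes between -0.30 and 0.30, 2 at an unadjusted p under 0.05 and 0 called by either tool. Cytosolic ribosomal protein genes had a median of -0.16 over 93 genes, 11 of them at an unadjusted p under 0.05 and none called by edgeR or DESeq2. Mitochondrial genome transcripts had a median of -0.36 with none of 27 at an unadjusted p under 0.05, and proteasome genes a median of -0.06 with 1 of 47. Neither tool called any gene of these last lists.

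Neuronal gene lists also held no call in edgeR. Here too, 1541 of all 16163 genes had an unadjusted p under 0.05. Of 44 neuropeptide and peptide hormone genes 7 had an unadjusted p under 0.05, the median was -0.08, and DESeq2 called 2, Eh and Ilp3. Neuropeptide receptors had 6 of 39 at an unadjusted p under 0.05 and none called by DESeq2. For synaptic vesicle release the counts were 1 of 42 and 0, for transmitter synthesis 1 of 19 and 0, and for activity-regulated genes 2 of 14 and 0. Clock genes had 3 of 17 and 1 call by DESeq2, cwo, a repressor of the clock loop, which was at a mean of 66.6 CPM in TyrRS-WT and 102.5 CPM in TyrRS-WT∆NLS (log2 fold change -0.62, SE 0.17, adjusted p = 0.124 from edgeR). Lists of glia, fat body and sex-biased, muscle and hemocyte genes had no call in edgeR either, with 1 of 20, 1 of 23, 1 of 18 and 4 of 11 at an unadjusted p under 0.05. DESeq2 called Act79B of the muscle list and none of the other 3. Odorant-binding protein genes had 8 of 46 at an unadjusted p under 0.05, 0 calls in edgeR and 1 in DESeq2, and in the sugar and metabolism list of 37 genes edgeR called sut3 and DESeq2 called sut3 and Tps1.

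**Figure D4:**
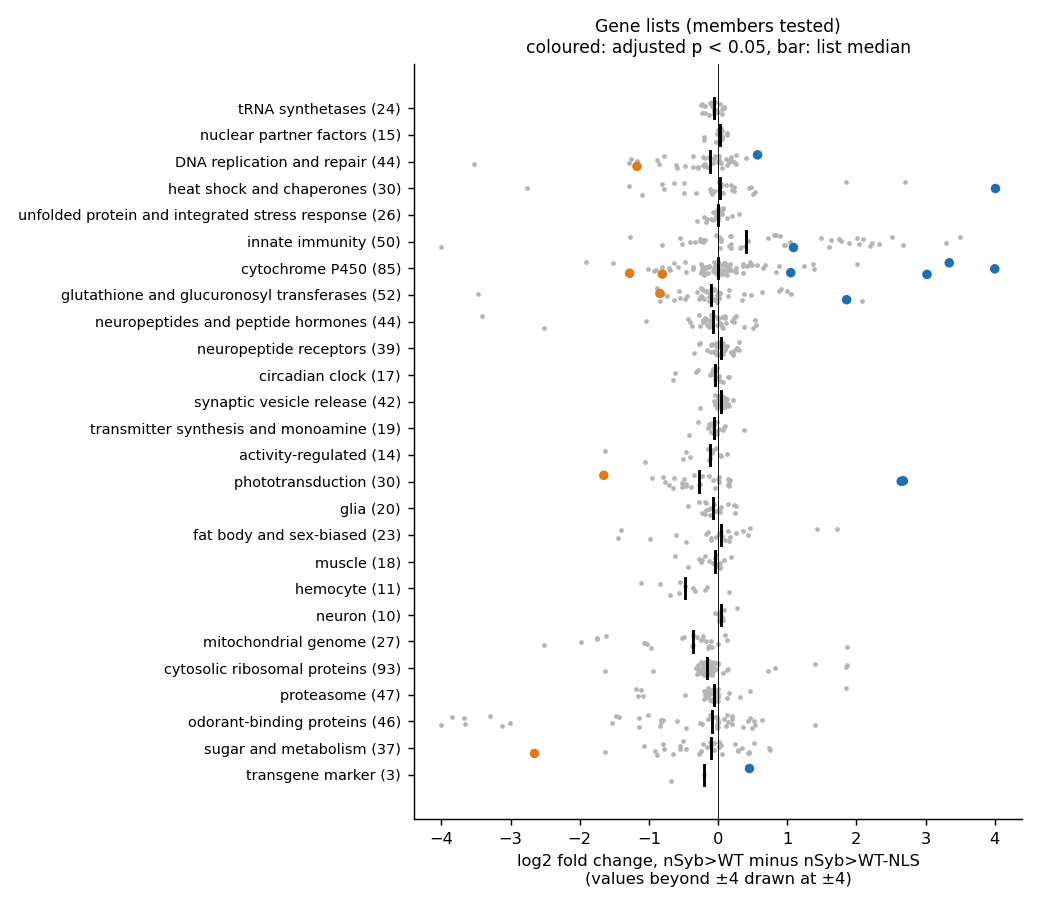
Log2 fold change of TyrRS-WT minus TyrRS-WT∆NLS for every tested member of the gene lists, with the number tested in brackets, the list median as a black bar and called members coloured (blue higher, orange lower in TyrRS-WT). Values beyond 4 in either direction are drawn at that limit, which holds for Hsc70-2 (8.44) and Cyp12d1-d (10.60) and, uncalled and below 0, for LysB (-4.89) and Obp59a (-5.14). The medians lie between -0.48 and 0.41, and calls appear in 8 of the 26 lists.

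Some called genes lay next to each other. Of 124 called genes with coordinates averaging 1 CPM or more, 26 (21%) had another such gene within 20 kb, beside 7.45% of all 9093 genes of that level, and they formed 12 runs. No test was made of this excess. Within each of the 12 runs all genes went in 1 direction. Zir, a DOCK family exchange factor, at 341.6, 289.5 and 344.1 CPM in TyrRS-WT and 199.8, 165.8 and 204.8 CPM in TyrRS-WT∆NLS, lies 0.294 kb from CG11377, at 43.9 to 49.6 against 29.6 to 32.7 CPM. Their log2 fold changes were 0.77 (SE 0.10) and 0.59 (SE 0.08). CG2218, at 109.7, 106.4 and 112.4 CPM against 58.8, 66.9 and 61.3 CPM (log2 fold change 0.81, SE 0.08), lies next to CG15536, which was at 0.58 (SE 0.13). CG3238, the Pif1 DNA helicase, was at 0.97 (SE 0.22) beside CG31776 at 2.03. CG8475 and CG8460 were at 0.50 and 0.42, the cuticle protein genes Edg78E and Cpr78Cc at 1.26 and 1.05, CG32165 and CG4098 at 0.67 and 0.86, and CG8323 and CG18327, which overlap, at 0.36 and 0.87. Runs lower in TyrRS-WT were CG33296 and CG13793, sut3 and CG8713, CG11619 at -0.98 with CG34256 at -0.84, and CG12224 at -1.48 with Ect3, a beta-galactosidase, at -0.55. The calls of CG3238, CG15536 and CG8323 were each lost in 9 of 13 alternatives, that of CG8460 in 7, those of Cpr78Cc, CG18327 and Ect3 in 6, that of CG34256 in 5 and that of CG32165 in 3. Those of Zir, CG11377, CG2218 and CG11619 were lost in none, and those of Edg78E, CG4098 and CG8475 in 1. The reads were counted without strand. Reads on a stretch that a gene shares with an overlapping one on either strand could therefore not be assigned to either gene. Between 4.87 and 6.32% per library were set aside as ambiguous. Such overlap touches CG14961, Cyp6t3, Cyp301a1, Cyp317a1, CG4098, CG32165, CG11377, CG15536, CG8475, CG8713, CG34376, GEFmeso, mus308, bon, E2f1 and Dp.

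The E196K genotypes offer a comparison of the same kind with no shared library. In that comparison 921 genes (5.7%) differed between TyrRS-E196K and TyrRS-E196K∆NLS in edgeR, 405 higher (2.51%) and 516 lower (3.19%), with the transgene copies unequal. Of the 175 genes, 68 were called there in the same direction, which is 38.9% of the wild-type calls and 7.38% of the E196K calls, and 14 in the opposite direction. The 68 were 37 higher and 31 lower with the signal intact. Cyp12d1-d was among them, at a mean of 2.60 CPM in TyrRS-E196K and 0.00542 CPM in TyrRS-E196K∆NLS, as were CG33296 (log2 fold change -2.39 beside -2.25), CG7763 (3.16 beside 3.07), sut3 (-3.63 beside -2.66), spartin (1.23 beside 1.44), CG14024 (1.31 beside 1.32), CR43242 (-1.17 beside -1.09) and mre11 (0.59 beside 0.57). The difference of the comparisons, tested as an interaction, was called for 64 of the 175 and for 234 of all genes (1.45%). Hsc70-2 was one of the 64, at a mean of 0.213 CPM in TyrRS-E196K and 0.0902 CPM in TyrRS-E196K∆NLS. So were Rh6 (-0.29 in the E196K comparison), Ugt86Dd (-0.55), kek2 (0.01), Topors (0.01), mus308 (0.13), CG10737 (0.14), CG34376 (0.19) and GEFmeso (0.19). Mis12 was at -0.02 in the E196K comparison (adjusted p = 0.986 from edgeR), and both genotypes, at means of 12.2 and 12.3 CPM, lay near TyrRS-WT∆NLS. In both comparisons the lines with the disrupted signal were made for the present study and those with the intact signal came from an earlier one. A shared call therefore cannot be assigned to the signal alone.

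**Figure D5:**
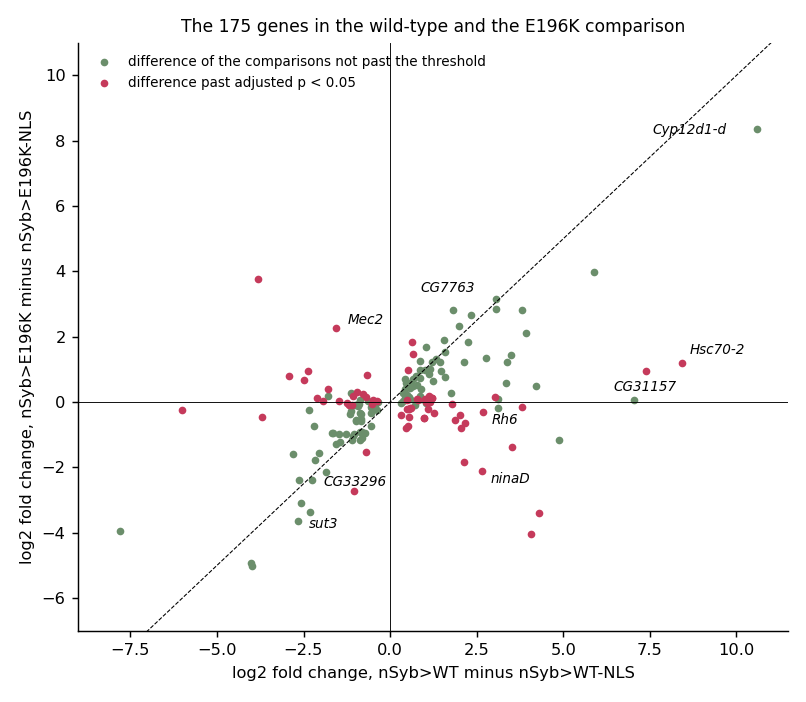
Log2 fold change of the 175 called genes with the nuclear signal intact minus disrupted, for wild-type TyrRS on the horizontal and TyrRS-E196K on the vertical axis. The dashed line marks equal values, and red points are the 64 genes whose difference between the comparisons passed the threshold in edgeR. Hsc70-2 and CG31157 lie far right of the line, and Cyp12d1-d, CG7763, CG33296 and sut3 near it.

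The marker gene of the transgenes was measured as a check of the lines. The gene w encodes the eye pigment transporter that fly vectors carry as mini-white. It was at 99.95, 81.7 and 89.7 CPM in TyrRS-WT, 69.7, 62.0 and 67.0 CPM in TyrRS-WT∆NLS and 26.8 to 31.02 CPM in control, so both transgenic genotypes stood above control and TyrRS-WT above TyrRS-WT∆NLS. The difference between them was 0.45 on the log2 scale (SE 0.09, adjusted p = 0.0146 from edgeR) and was called in 8 of 13 alternatives. In the E196K genotypes w was lower with the signal intact, at means of 126.4 and 216.6 CPM. Across genotypes w did not follow copy number, since TyrRS-E196K flies carried fewer copies than TyrRS-WT flies and had more w. It is therefore not read as a measure of transgene level. The part of unequal transgene expression in the calls was not tested.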

How the data were processed

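RNA-seq counts of whole fly brains were compared between 3 TyrRS-WT and 3 TyrRS-WT∆NLS libraries, all taken from one table. Per the labels and methods, the authors trimmed reads with Trimmomatic 0.32, mapped them to BDGP6 with TopHat2 2.0.12, counted reads per gene with HTSeq 0.6.1 without strand, and deposited the counts without normalization, after removing 3 libraries as outliers. A second deposited table of normalized values was not used here. The authors tested with DESeq2 1.14.1 and a batch factor. The batch of each library is not given in the sources used here and was left out. Of the table's lines, 6 named no gene, and 16163 of 17559 genes had a count. The table numbers 1 TyrRS-WT∆NLS column differently from every label of that genotype, so that library was left unnumbered. It was assigned to the genotype by the prefix of its column name. The label left without a column bears the number of a library that the methods list as a removed outlier, and this conflict was not resolved. The study states that samples were independent and that RNA was extracted in replicates, but not how flies were divided among libraries, so p-values measure the spread between these samples, which may be partly technical. No library pair agreed within sampling noise (chi-square of 61.8 to 139 per gene).

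The test was edgeR 4.0.16's quasi-likelihood test (R 4.3.3, TMM, all 17 libraries in 1 fit by genotype), with Benjamini-Hochberg adjustment over all genes and a threshold of 0.05. Each SE was taken from the log2 fold change and the square root of F, as their ratio. On simulated counts of 16163 genes for this comparison, edgeR recovered 76% of 100 genes changed by 2-fold and 35% of 100 changed by 1.5-fold, with 3 false calls. DESeq2 recovered 83% and 61% of the same genes, with 15 false calls. The changed genes were drawn from those averaging 1 CPM or more, so recovery below that level was not simulated. Named genes were the 12 largest changes in each direction among called genes that averaged 1 CPM or more without overlap of the libraries, called list members, called genes within 20 kb of another, Aats-tyr, w and 5 partner factors. The members and lists were chosen with earlier results of these data known. Alternatives were DESeq2 size factors, filterByExpr, DESeq2 1.42.0, a fit of the 6 libraries, a replicate block, 1 surrogate variable (sva 3.50.0), each library left out and robust dispersions. Coordinates are those of a later Ensembl annotation of BDGP6, which held 15879 of the genes. Tables and the exact test used Python 3.11.15 with pandas 2.3.3 and scipy 1.17.1. The depth makes spread between libraries, not counting error, the limit for most genes, and genes under 1 CPM rest on few reads.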

Additional observations from a re-analysis of the deposited data

Results flagged for a closer look

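For 20 named genes the difference between the genotypes with intact and with disrupted signal was not the same for wild-type and for E196K TyrRS. The difference itself was tested in edgeR (adjusted p under 0.05, TyrRS-WT minus TyrRS-WT∆NLS, less the same for E196K, on the log2 scale). The E196K genotypes carried unequal numbers of transgene copies, and the part of this in the differences was not tested.

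Differences above 0 were largest for the genes near 0 outside TyrRS-WT, Hsc70-2 (7.24) and its neighbour CG31157 (6.46), and CG7966 of the same run was at 1.15. The carotenoid receptor ninaD was at 4.75, since its E196K difference ran the other way (-2.10, adjusted p = 0.00348 from edgeR). Rh6 was at 2.97, Cyp313a2 at 2.86, CG31776 at 2.44 and Ugt86Dd at 2.41. CG9616 followed at 1.85, CG8713 at 1.67, Edg78E at 1.57, CG3238 at 1.46 and Tep4 at 1.29. The smaller ones were CG11377 at 0.78, CG2218 at 0.77, Zir at 0.67 and CG8475 at 0.44. The marker gene w was at 1.23, being higher in TyrRS-WT than in TyrRS-WT∆NLS (0.45) and lower in TyrRS-E196K than in TyrRS-E196K∆NLS (-0.78). Differences below 0 were found for Mec2 (-3.82), which was higher with the signal intact in the E196K pair (2.27) and lower in the wild-type pair (-1.55), and for CG12224 (-1.50).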

How the results depend on the processing

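The number of genes that differed, 175, was 177 with DESeq2 size factors, 199 after filterByExpr, 134 with 1 surrogate variable and 194 with robust dispersions, an alternative added after seeing the data. DESeq2's Wald test called 328, 169 of them among the 175, and a fit of the 6 libraries alone called 77, 65 of them among the 175. Leaving out 1 library gave 95 to 156 calls, lowest without TyrRS-WT replicate 3 (95), then 109 without TyrRS-WT∆NLS replicate 2, 114 without its replicate 1 and 116 without TyrRS-WT replicate 1. Of the 175, 48 were called in all 13 alternatives and 80 without each library in turn. The difference from the E196K comparison, 234 genes, was 551 with DESeq2 and 147 to 285 without 1 library, with 147 lacking TyrRS-WT replicate 1 and 152 lacking its replicate 3. It could not be fitted on the 6 libraries alone. The count of genes shared with the E196K comparison, 68, an overlap counted after seeing the data, was 115 with DESeq2 and 40 to 61 without 1 library, namely 40 and 41 without TyrRS-WT replicates 1 and 3 and 43 without TyrRS-WT∆NLS replicate 1.

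In a fit that blocked on the replicate number and dropped the unnumbered library, 104 genes differed, 145 differed from the E196K comparison and 44 were shared. Libraries of the same number did not deviate together (r = 0.412 and -0.135, against -0.522 to 0.517 for other pairs), so the numbers were not taken as a pairing.

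Of 52 named genes called, 15 stayed past the threshold in all 13 alternatives and none changed direction. Uncalled genes near 0 changed sign: Rpd3 to -0.00 with the block, E2f1 to -0.02 and -0.06 without TyrRS-WT replicate 2 and TyrRS-WT∆NLS replicate 2 (-0.06 to 0.1 over the fits without 1 library), Dp to -0.01 with the surrogate variable and -0.03 without TyrRS-WT∆NLS replicate 1 (-0.03 to 0.04), and Aats-tyr to 0.03 with the block and 0.01 without TyrRS-WT replicate 3 or the unnumbered library (-0.22 to 0.01). None of 116 mean levels moved by more than 1 SD under DESeq2 size factors. The cause of these shifts was not tested.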
